A study of Mus musculus with 9 samples.

Results

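Actins are the subunits of the thin filaments that shape cells and, with myosin, contract them. Acta1 encodes the alpha actin of skeletal muscle, Acta2 that of vascular smooth muscle, Actc1 that of the heart, and Actg2 the gamma actin of visceral smooth muscle. Actb and Actg1 encode the beta and gamma actins of the cytoplasm, which non-muscle cells make throughout life. The genes were taken by name from a table of 11051 genes. The rule named 6 actins, of which 5 were analysed here, and Actc1 was not analysed here.

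RNA came from hepatic stellate cells, the pericytes of the liver sinusoid, taken from C57BL/6 mice and grown in culture. The cells of all groups received exosomes, small vesicles released by other cells, in medium with serum depleted of them. In the control group the donor cells were primary mouse duct epithelium of the pancreas, and in the other groups they were KPC or Panc02 cells, lines derived from mouse pancreatic adenocarcinoma. Each group held 3 libraries, 9 in all, and each line stands for 1 tumour source. Every comparison with control is therefore one of tumour exosomes with duct cell exosomes. Stellate cells without exosomes were not analysed here. The sources used here do not give the age and sex of the mice, the exosome dose or the length of exposure, nor do they say whether the numbers 1 to 3 are separate cultures or animals. The p-values below therefore measure only the spread between these samples, which may be technical.

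When stellate cells turn into myofibroblasts they build stress fibres, and Acta2 is the usual marker of that state. Muscle actin genes are classical targets of serum response factor, SRF, which binds CArG boxes in DNA. Its coactivators of the MRTF family are held in the cytoplasm by actin monomers and enter the nucleus when monomers are used up in filaments. Transforming growth factor beta, a main fibrogenic signal in liver, also raises Acta2 in these cells.

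Values are FPKM, a fragment count scaled for gene length and for sequencing depth, as the authors deposited them. How many reads each library had is unknown. The values summed to between 257119 and 307280 per library, and 9895 to 10270 genes reached 1 FPKM. The replicate 1 library stood apart in every group. Mitochondrially encoded genes made up 26.4%, 33.6% and 28.3% of the summed FPKM in the replicate 1 libraries of control, KPC and Panc02, and 11.2% to 15.9% in the others. Of 15 stellate cell markers, Acta2 among them, 6 others were analysed, and their summed FPKM ran from 401 to 463 in control, 411 to 562 in KPC and 458 to 568 in Panc02. None of 12 hepatocyte markers was analysed here. The summed level of 3 of 10 macrophage and leukocyte markers was 3.74 to 6.10 FPKM over all libraries, and the 1 of 8 endothelial markers lay at 0.984 to 1.50 FPKM. The 1 of 6 mesothelial markers, Msln, was at 76.7 to 112 FPKM in control, 47.3 to 94.5 in KPC and 45.4 to 87.6 in Panc02. The summed level of 6 of 9 epithelial and duct cell markers was 386 to 425 FPKM in control, 367 to 385 in KPC and 375 to 385 in Panc02, nearly all of it Spp1, which stellate cells also make. Panc02 replicate 1 had the highest Krt8, Krt19 and Epcam, at 6.54, 3.89 and 3.89 FPKM, while Epcam was at 0 in 4 of the 9 libraries. The actin results without that library stand with their tests.

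The coding sequences of the actins are close relatives, which bears on whether a short read can be given to 1 gene. Their first 60 bases are shown as an example of how closely they match. They are printed 5′ to 3′ from the GENCODE M21 annotation of GRCm38, and capitals mark bases unlike Acta2 in a pairwise alignment of the whole coding sequences. Gaps are not shown, so the lines of the shorter Actg2, Actb and Actg1 are shifted against the Acta2 line.
Acta2: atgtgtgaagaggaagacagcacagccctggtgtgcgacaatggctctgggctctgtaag
Acta1: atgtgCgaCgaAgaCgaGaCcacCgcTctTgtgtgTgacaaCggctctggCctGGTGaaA
Actg2: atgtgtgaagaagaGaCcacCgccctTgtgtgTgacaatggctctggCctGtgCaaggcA
Actb: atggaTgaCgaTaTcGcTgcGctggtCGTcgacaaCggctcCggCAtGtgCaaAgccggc
Actg1: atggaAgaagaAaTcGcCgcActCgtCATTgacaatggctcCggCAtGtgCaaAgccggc
Of these 60 bases, 17 differed from the aligned base of Acta2 in each of Acta1, Actb and Actg1, and 9 in Actg2. Acta2 bases that Actg2, Actb and Actg1 lack are not in these counts. Over whole coding sequences the identity between pairs ran from 81.5% to 88.7%. Actb and Actg1 were the closest pair at 88.7%, and Acta1 and Acta2 were 85.4% identical.

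The whole coding sequences were 1128 to 1134 bases long. The longest identical stretch between the cytoplasmic actins is shown because a read inside it cannot be told apart between these abundant genes.
Actb and Actg1, 62 bases from base 889 of the Actb coding sequence: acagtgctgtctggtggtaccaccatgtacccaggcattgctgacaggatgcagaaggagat

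All windows of 50, 75 and 100 bases of each coding sequence were looked up in the transcripts of every other gene. At 75 bases, 0.566% of the Acta1 windows and none of those of Acta2 or Actg2 occurred elsewhere. For Actb the share was 4.55%. For Actg1 it was 97.1%, and at 100 bases it was still 91.9%, all of it with 6 pseudogenes, among them Gm12715, Gm8399 and Actg-ps1. In the 3′ untranslated regions no actin shared a window of 75 bases. The sources used here give neither the read length nor how reads with several matches were handled, so the Actg1 level is uncertain. No actin exon overlapped an exon of the opposite strand, while Actg1 exons overlapped the small RNA genes Gm23419 and Mir6935 on its own strand.

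**Figure D1:**
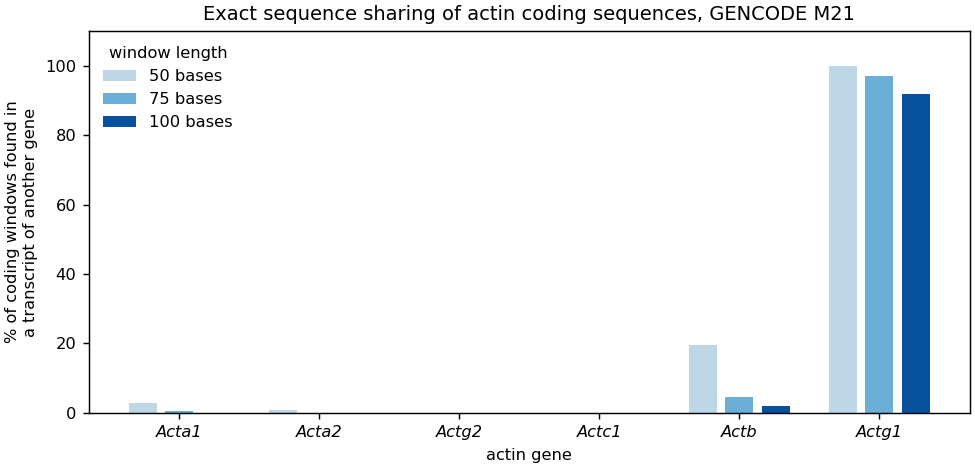
Percent of coding sequence windows (y axis) of each actin (x axis) that occur letter for letter in a transcript of another gene, for windows of 50, 75 and 100 bases. The bars of Acta1, Acta2 and Actg2 stay at or under 2.86%, while those of Actg1 run from 91.9% to 100%.

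Acta2 (ENSMUSG00000035783.8, chromosome 19, 34241090 to 34255336, minus strand of GRCm38, as are all positions below) was the most abundant muscle actin in every library. Its level was 299, 341 and 315 FPKM in control replicates 1 to 3, and 379, 499 and 495 FPKM with KPC exosomes. With Panc02 exosomes it was 440, 511 and 568 FPKM. All 6 tumour exosome libraries lay above all 3 control libraries, and the KPC and Panc02 libraries overlapped. By FPKM it stood between positions 79 and 93 of the table in control, 44 and 57 in KPC and 42 and 50 in Panc02. Group means were 319 ± 21.1, 457 ± 68.2 and 507 ± 63.8 FPKM (SD, n = 3 each), so KPC was at 1.44 times and Panc02 at 1.59 times the control mean.

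Actg2 (ENSMUSG00000059430.14, chromosome 6, 83512905 to 83536265) was far scarcer. It lay at 7.70, 7.91 and 9.07 FPKM in control and at 12.0, 17.4 and 17.3 FPKM with KPC exosomes. With Panc02 exosomes it reached 14.4, 22.3 and 23.7 FPKM. Control was again apart from both tumour groups, and the replicate 1 library was the lowest in each group. Means were 8.23 ± 0.735, 15.6 ± 3.12 and 20.1 ± 5.01 FPKM, or 1.89 and 2.45 times control.

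Acta1 (ENSMUSG00000031972.5, chromosome 8, 123891769 to 123894751) was the scarcest and differed most in proportion. It was measured at 0.508, 0.626 and 0.556 FPKM in control, among the lowest genes of the table at positions 10639 to 10793. It stood at 2.18, 4.85 and 7.88 FPKM with KPC exosomes and at 3.43, 9.02 and 10.5 FPKM with Panc02 exosomes. The lowest tumour exosome library, KPC replicate 1, was still above every control library. Means were 0.563 ± 0.0595, 4.97 ± 2.85 and 7.65 ± 3.73 FPKM, or 8.82 and 13.6 times control. Within each tumour group the 3 libraries spread widely, and replicate 1 was the lowest. Acta1 reached the level required for testing, 1 FPKM in 3 libraries, only through the tumour exosome libraries, so that a difference was built into its being tested. Without that requirement its adjusted p for Panc02 was 0.0499. The other 4 actins were above 1 FPKM in all 9 libraries.

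**Figure D2:**
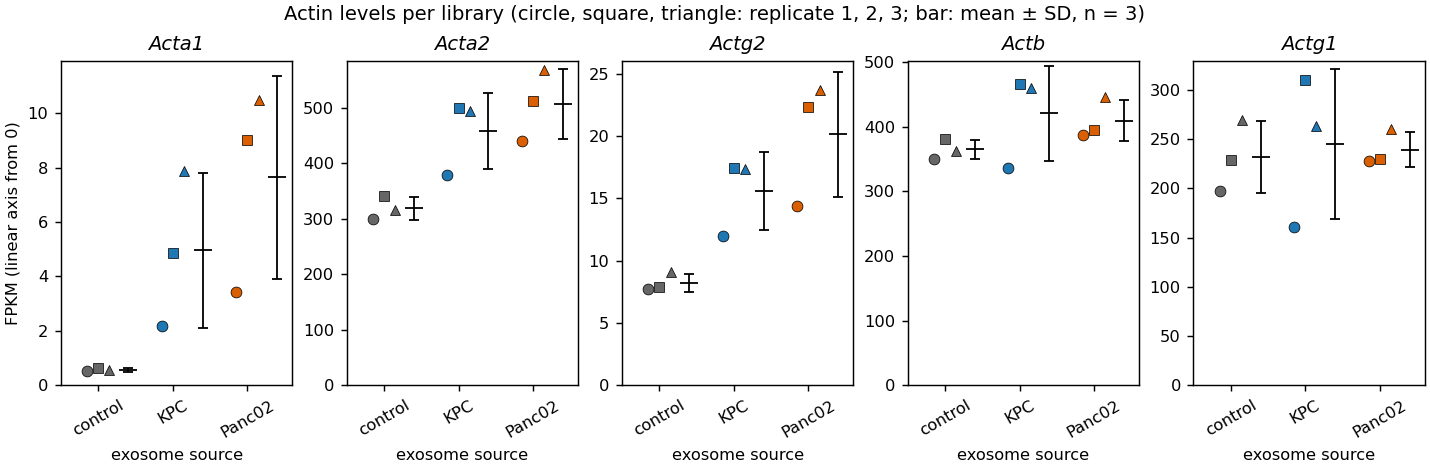
FPKM of each actin (y axis, linear from 0, its own scale per gene) by exosome source (x axis); circles, squares and triangles are replicates 1, 2 and 3, and bars give the mean ± SD of 3 libraries. Acta1, Acta2 and Actg2 lie higher in all 6 tumour exosome libraries than in all 3 control libraries, while Actg1 overlaps throughout.

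The difference between Panc02 and control exosomes passed the test for 2 of the 5 actins, Acta1 and Actg2, both muscle actins. Of all tested genes 0.434% were called higher. Acta1 was tested only because of its tumour exosome values, so its calls, here and below, are not counted as support. Acta1 rose by 2.35 on the log2(FPKM + 1) scale (SE 0.43, 95% interval 1.38 to 3.33, adjusted p = 0.0485, limma with Benjamini-Hochberg adjustment over 10368 genes). Actg2 rose by 1.17 (SE 0.21, interval 0.70 to 1.64, adjusted p = 0.0451). For Acta2 the difference was 0.66 (SE 0.15, interval 0.32 to 1.00) and did not pass, at an adjusted p of 0.102. With the replicate number as a block all 3 passed, at 0.00411 for Acta1, 0.00271 for Actg2 and 0.00860 for Acta2, and 1.85% of all genes were called higher. The pairing by number was read from these same data, and libraries numbered 2 and 3 correlated no more within a number than across numbers. The blocked calls here and below rest on that pairing. With 1 added to every FPKM value, the log2 scale understates the change of a gene as low as Acta1, and with 0.1 added instead its difference was 3.40.

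These calls rested on few libraries. Without the block, the Acta1 call was lost when control replicate 1, 2 or 3, KPC replicate 2 or Panc02 replicate 2 or 3 was left out, with adjusted p-values of 0.101 to 0.201. The Actg2 call was lost without any of the same libraries or without KPC replicate 3, at 0.0663 to 0.201. Such fits with the block were added after seeing the data. In these, Acta1 and Actg2 passed in 9 of 9, with adjusted p-values up to 0.0379 and 0.0310. Without Panc02 replicate 1 the block-free adjusted p-values were 0.0283 for Acta1, 0.0213 for Actg2 and 0.119 for Acta2. With the block Acta2 passed in 6 of 9 fits and was lost without control replicate 2, control replicate 3 or Panc02 replicate 1, at up to 0.0644.

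With KPC exosomes the same 3 muscle actins had means above control, but none of the 5 actins passed limma without the block, where 0.125% of all genes were called higher. The log2 differences were 1.81 for Acta1 (SE 0.43, interval 0.83 to 2.79, adjusted p = 0.212), 0.83 for Actg2 (SE 0.21, interval 0.36 to 1.30, adjusted p = 0.252) and 0.51 for Acta2 (SE 0.15, interval 0.17 to 0.85, adjusted p = 0.371). Their unadjusted limma p-values were 0.00255, 0.00350 and 0.00830, and 6.54% of all genes had an unadjusted p under 0.05. With the replicate block the 3 passed, at adjusted p-values of 0.0224, 0.0195 and 0.0404, with 0.588% of all genes called higher. The blocked calls held in 4 of 9 fits with a library left out for Acta1 and for Actg2, and in 1 of 9 for Acta2, and the highest adjusted p-values were 0.121, 0.135 and 0.184. They were lost for all 3 without control replicate 2, control replicate 3, KPC replicate 2, KPC replicate 3 or Panc02 replicate 3. Both tumour comparisons use the same control libraries, so they are not independent of each other.

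**Figure D3:**
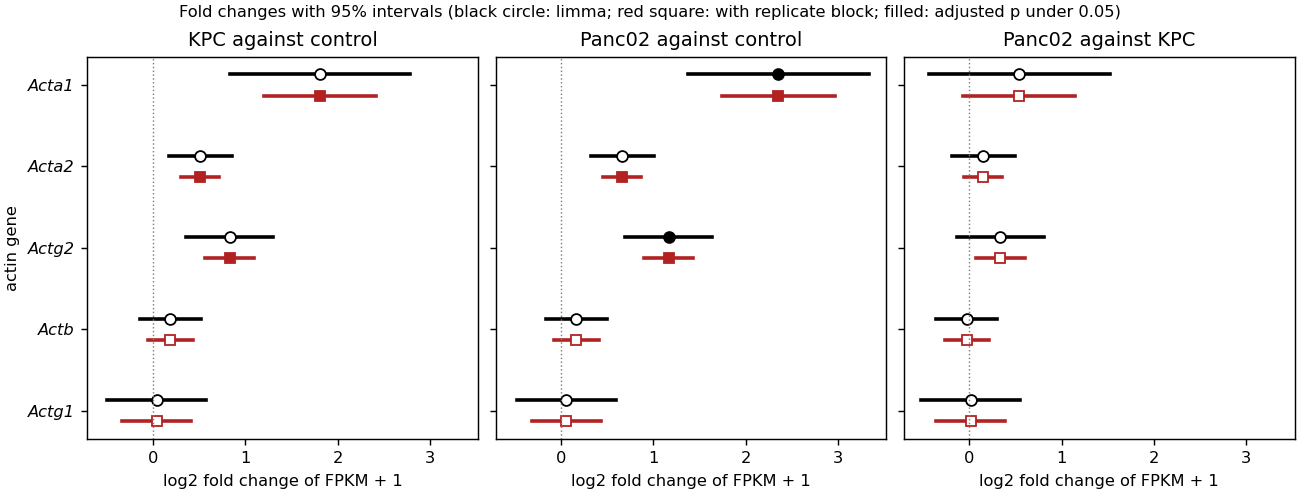
Log2 fold change of FPKM + 1 (x axis) of each actin (y axis) in the 3 comparisons, with 95% intervals; black circles are the fit without and red squares the fit with the replicate block, and filled symbols mark an adjusted p under 0.05. Filled symbols appear for Acta1, Acta2 and Actg2 against control, for KPC with the block alone, and none appears for Panc02 against KPC.

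The difference from control was also taken within each replicate number for these genes. Its sign was settled beforehand, since every tumour exosome library lay above every control library, and is no added support. For Acta1 the difference was 1.08, 1.85 and 2.51 on the log2(FPKM + 1) scale in numbers 1 to 3 with KPC exosomes. With Panc02 exosomes it was 1.55, 2.62 and 2.89. For Acta2 it was 0.34, 0.55 and 0.65 with KPC and 0.56, 0.58 and 0.85 with Panc02. For Actg2 it was 0.58, 1.05 and 0.87 with KPC and 0.82, 1.39 and 1.29 with Panc02. Number 1 gave the smallest difference for each of the 3 genes with each source.

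Control and tumour groups did not overlap for 3 of 5 actins with KPC, where 4.14% of all genes were higher without overlap. With Panc02 this held for 4 of 5, Actb being the added one, against 6.79% of all genes. Acta1 is in both counts, although only its tumour exosome values brought it into the test. In bulk RNA, fewer cells of a type and less RNA per cell cannot be told apart, and neither can more. Col1a1, the collagen I chain made by activated stellate cells, also lay higher in every tumour exosome library, at 93.0 to 114 FPKM in control, 136 to 240 in KPC and 181 to 246 in Panc02. Its part in the result was not tested.

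Markers of other muscle were looked at beside Acta1. Of 12 skeletal muscle markers 1 was analysed, Mylpf, the fast regulatory myosin light chain, at 0.631 to 1.12 FPKM in control, 0.972 to 1.10 in KPC and 0.802 to 1.29 in Panc02. Of 9 cardiac markers 3 were analysed, and their summed level ran from 2.73 to 4.69 FPKM in control, 5.02 to 9.10 in KPC and 8.65 to 9.78 in Panc02. Tnnt2, cardiac troponin T, was the 1 of them whose groups lay apart, at 0.120 to 0.376 FPKM in control, 2.27 to 3.77 in KPC and 4.66 to 7.95 in Panc02. Nkx2-5 and Nppb overlapped between the groups, and Nppb was at 0 in Panc02 replicate 1. Of 9 vascular smooth muscle markers, Actg2 among them, 3 others were analysed, Cnn1, Smtn and Lmod1. Their summed level overlapped between groups, at 16.1 to 18.8 FPKM in control, 14.3 to 20.3 in KPC and 16.5 to 21.7 in Panc02. The part of other muscle cells in the actin differences was not tested.

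The RefSeq promoter table for GRCm38.p6 held 4 of the 6 actins, Actg2 and Actb not among them. The 250 bases before the RefSeq gene start are shown for Acta1 and Acta2, whose profiles over the libraries were similar. That start differs from the gene positions printed above. In GENCODE M21 the Acta2 gene reaches to 34255590, so most of its window lies inside the gene as annotated there. Capitals mark CArG boxes, taken here as 2 C, 6 bases that are A or T with 1 G or C allowed, and 2 G, and the MCAT element CATTCC on either strand, a binding word of TEAD factors.
Acta1, chr8:123894776-123895025, minus strand: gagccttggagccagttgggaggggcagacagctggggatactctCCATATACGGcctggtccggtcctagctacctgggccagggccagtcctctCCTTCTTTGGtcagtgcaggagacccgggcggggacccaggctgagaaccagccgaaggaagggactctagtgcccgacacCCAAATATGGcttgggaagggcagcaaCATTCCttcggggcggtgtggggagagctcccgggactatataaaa
Acta2, chr19:34255374-34255623, minus strand: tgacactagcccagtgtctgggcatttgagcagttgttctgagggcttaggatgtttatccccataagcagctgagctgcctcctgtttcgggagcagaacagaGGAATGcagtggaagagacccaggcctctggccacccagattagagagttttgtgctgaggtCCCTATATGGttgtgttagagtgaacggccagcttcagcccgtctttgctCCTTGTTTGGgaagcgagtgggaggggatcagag
Acta1 had 3 CArG boxes, starting 205, 154 and 73 bases before the RefSeq gene start, and 1 MCAT element at 46. The box at 73 was free of G and C in its core. Acta2 had 2 boxes, at 84 and 34, each with 1 G or C, and 1 MCAT element at 146. The Actg1 promoter, of a cytoplasmic actin, held 1 box without G or C at 90 and no MCAT element. In windows from 250 bases before to 50 after the start, 9.98% of 32851 promoters held a CArG box by this definition, 1.63% held one without G or C, and 14.7% held the MCAT word. A CArG box and an MCAT element occurred together in 1.62%. The Actc1 promoter held 4 boxes, 1 of them without G or C, and no MCAT element, and its expression was not analysed here. A CArG box by this definition was thus found for all 4 actins of the promoter table, Actg1 among them, which passed no test, and binding was not measured.

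The cytoplasmic actins had mean levels of at most 1.15 times control with either tumour source. Actb (ENSMUSG00000029580.14, chromosome 5, 142903115 to 142906754) was at 351, 381 and 363 FPKM in control, 336, 466 and 460 in KPC and 388, 395 and 446 in Panc02. The Panc02 libraries lay just above the control libraries, and the KPC libraries fell on both sides of them. Means were 365 ± 15.4, 421 ± 73.2 and 410 ± 31.5 FPKM, or 1.15 and 1.12 times control. Neither difference passed: the log2 differences were 0.19 for KPC (interval -0.14 to 0.52, adjusted p = 1.00) and 0.16 for Panc02 (interval -0.17 to 0.49, adjusted p = 0.961). The KPC interval also includes a difference as large as that of Acta2 with KPC, 0.51. With the replicate block the adjusted p-values of Actb were 0.485 and 0.449.

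Actg1 (ENSMUSG00000062825.15, chromosome 11, 120345690 to 120348542) varied as much within groups as between them. It stood at 197, 229 and 270 FPKM in control, 161, 310 and 264 in KPC and 228, 230 and 260 in Panc02. The lowest and the highest value both belonged to KPC libraries. Means were 232 ± 36.5, 245 ± 76.4 and 239 ± 18.0 FPKM. The log2 differences were 0.04 for KPC (interval -0.49 to 0.57, adjusted p = 1.00) and 0.06 for Panc02 (interval -0.48 to 0.59, adjusted p = 1.00), and with the block the adjusted p-values were 0.946 and 0.892. The sign of these small differences changed when single libraries were left out.

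Panc02 and KPC exosomes were also compared directly. No actin passed limma, with every adjusted p at 1.00, and 0 of all tested genes were called. At an unadjusted limma p under 0.05 there were 86 genes, 0.829% of those tested and none of them an actin. With the block there were 260, or 2.51%, among them Actg2. Both shares were below 0.05, the share this threshold gives when no gene differs, so nothing is read from Actg2 being among them. The log2 difference, Panc02 minus KPC, was 0.54 for Acta1 (interval -0.43 to 1.52), 0.34 for Actg2 (interval -0.13 to 0.81) and 0.15 for Acta2 (interval -0.19 to 0.49). For Actb it was -0.03 (interval -0.36 to 0.31) and for Actg1 0.02 (interval -0.52 to 0.55). Without the block the intervals for the muscle actins thus include no difference. Their upper ends lay below the KPC differences from control of the same genes, 1.81 for Acta1, 0.83 for Actg2 and 0.51 for Acta2. For Actg2 and Acta2 they came close to them. With the block the interval for Actg2 was 0.07 to 0.60, above 0 though the adjusted p was 1.00, and it was -0.07 to 1.15 for Acta1 and -0.06 to 0.36 for Acta2. The groups overlapped for all 5 actins, while 1.36% of all genes were higher in Panc02 without overlap. Matched by number, Acta1, Acta2 and Actg2 followed the order control, KPC, Panc02 in each of the 3 numbers, as 2.39% of all tested genes did. That pairing was read from these same data. For these genes every control library lay below every tumour exosome library, so only the step from KPC to Panc02 was open. The Acta2 step from KPC to Panc02 in number 2 was only 0.04 on the log2 scale.

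The muscle and cytoplasmic actins were next set against each other within libraries, which removes any factor common to all genes of a library. These shares are descriptions without a test. For Acta1, Actg2, Actb and Actg1 the values fit a division by the length of all annotated exons, the same length in every library. For Acta2 the length used could not be checked. Another length for a gene would move the shares of all 5. The 3 muscle actins made up 36.0%, 36.4% and 33.9% of the summed FPKM of the 5 actins in control. The share was 44.1%, 40.2% and 41.8% in KPC and 42.7%, 46.4% and 46.0% in Panc02, so every tumour exosome library was above every control library. The mean share was 35.4% ± 1.35 in control, 42.0% ± 2.00 in KPC and 45.1% ± 2.07 in Panc02 (SD, n = 3).

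Acta2 made up most of the muscle share. Its part of the sum was 34.5% ± 1.40 in control, 40.3% ± 2.09 in KPC and 42.7% ± 1.50 in Panc02. Actg2 made up 0.890% ± 0.0615, 1.36% ± 0.0289 and 1.69% ± 0.304, and Acta1 0.0609% ± 0.00386, 0.417% ± 0.198 and 0.631% ± 0.271. The share of Actb was 39.5% ± 1.56, 36.9% ± 0.930 and 34.7% ± 1.25, and that of Actg1 25.0% ± 2.77, 21.1% ± 2.92 and 20.3% ± 0.816. The Actg1 shares of control and KPC libraries overlapped. The summed actin level was 924 ± 59.7 FPKM in control, 1144 ± 221 in KPC and 1183 ± 118 in Panc02.

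The ratio of Acta2 to Actb was higher in every tumour exosome library than in every control library. It was 0.854, 0.895 and 0.868 in control, 1.13, 1.07 and 1.08 in KPC and 1.14, 1.29 and 1.27 in Panc02. Which of the 2 was ahead depended on the length used. In a setting chosen after seeing the data, Actb was taken per 1920 bases of its mRNA in place of the 2679 bases of all its exons. Acta2 was left as deposited, so the change could only lower the ratio. It was then 0.612 to 0.641 in control and 0.767 to 0.927 in the tumour exosome libraries, below 1 in this setting. In GENCODE M21 the Acta2 mRNA, at 2035 bases, is also shorter than its 2196 bases of all exons. The ratio with both genes taken per mRNA was not computed. The deposited FPKM gave the order Actb, Acta2, Actg1, Actg2, Acta1 in each control library. The ratio of Actg1 to Actb had no such split, at 0.562 to 0.744 in control, 0.479 to 0.666 in KPC and 0.583 to 0.587 in Panc02.

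The muscle actins did not keep a fixed proportion to each other. Acta1 amounted to 0.170%, 0.184% and 0.176% of Acta2 in control, to 0.576%, 0.972% and 1.59% in KPC and to 0.779%, 1.77% and 1.85% in Panc02. Actg2 amounted to 2.57%, 2.32% and 2.88% of Acta2 in control, to 3.16%, 3.49% and 3.50% in KPC and to 3.27%, 4.36% and 4.17% in Panc02. Both ratios were higher in every tumour exosome library than in every control library. Of the coding windows of 50 bases, 2.86% of those of Acta1 occurred in another gene, 2.58% in another actin, against 0.645% for Acta2 and none for Actg2. The part of such reads in the ratios was not tested.

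**Figure D4:**
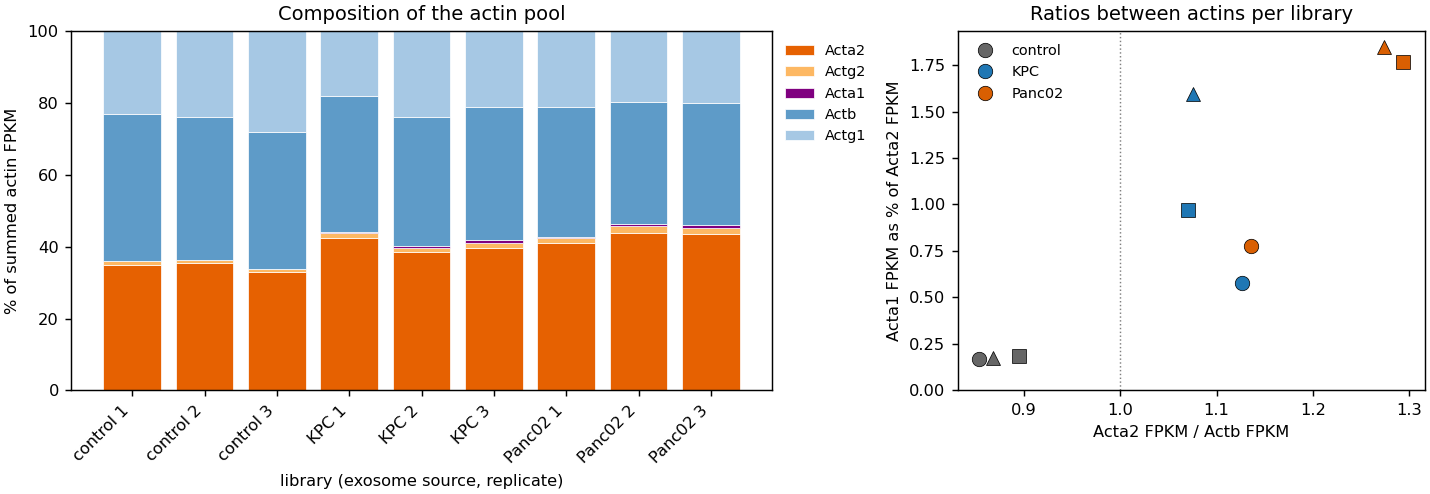
Left, share of each actin in the summed actin FPKM (y axis, percent) per library (x axis). Right, Acta1 as a percent of Acta2 (y axis) against the ratio of Acta2 to Actb (x axis), with circles, squares and triangles for replicates 1, 2 and 3; control libraries sit at ratios of 0.854 to 0.895, and all tumour exosome libraries sit to their right, at 1.07 or more. The dotted line marks equal deposited FPKM, and its place depends on the gene lengths used.

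The replicate 1 libraries ran through the actins as through the whole table. Each of the 5 actins was lowest in replicate 1 of every group, 15 of 15 cases, and so were 43.6% of all tested genes. Replicate 1 stood at 79.1% to 94.2% of the mean of replicates 2 and 3 in control, 34.3% to 76.2% in KPC and 35.2% to 92.9% in Panc02. The bottom of the last 2 ranges was Acta1. After scaling each library to an equal total without mitochondrially encoded genes, replicate 1 was lowest in 11 of 15 cases, and in every group for 2 actins, Acta1 and Acta2, beside 33.2% of all genes. With the replicate 1 libraries of all groups left out, the log2 differences against control were 2.75 for Acta1, 1.34 for Actg2 and 0.71 for Acta2 with Panc02 (adjusted p = 0.00212, 0.00166 and 0.0108). With KPC they were 2.18, 0.96 and 0.60 (adjusted p = 0.00662, 0.00744 and 0.0325). The differences were thus as large without those libraries. In this setting 178 of the 10368 tested genes were called for KPC and 477 for Panc02, against 34 and 105 with all libraries.

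For each actin the genes with the most similar profile were found by the Pearson correlation of log2(FPKM + 1) over the 9 libraries. The libraries share groups and the replicate 1 shift, so the correlations are descriptions. The muscle actins resembled each other, at 0.978 for Acta1 with Acta2, 0.984 for Acta1 with Actg2 and 0.975 for Acta2 with Actg2. Actb correlated with them at 0.699 to 0.795 and Actg1 at 0.343 to 0.435, while Actb and Actg1 correlated at 0.803. The 3 genes closest to Acta1 were Fkbp5, a chaperone partner of steroid receptors, at 0.993, Acsbg1, an acyl-CoA synthetase, at 0.990, and Ass1, argininosuccinate synthase, at 0.990. Closest to Acta2 were Ass1 at 0.987, Smad7, the inhibitory Smad of the transforming growth factor beta pathway, at 0.982, and Acta1. Closest to Actg2 were Fkbp5 at 0.985, Acta1, and P4ha2, a collagen prolyl hydroxylase subunit, at 0.978.

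Acsbg1 stood at 1.02 ± 0.0948 FPKM in control, 3.17 ± 1.26 in KPC and 4.42 ± 1.05 in Panc02, and Ass1 at 3.62 ± 0.698, 9.83 ± 4.09 and 14.4 ± 5.12 FPKM. Smad7 stood at 3.19 ± 0.207, 5.10 ± 1.30 and 5.80 ± 1.08 FPKM, and Fkbp5 at 10.2 ± 0.353, 13.7 ± 2.01 and 15.3 ± 1.98 FPKM. After the mean of each replicate number was subtracted, the lists changed. Acta1 then lay closest to Bhlhe40 and Fkbp5, both at 0.997, and Lipg at 0.995. Acta2 lay closest to Creb3l1, a transcription factor of the endoplasmic reticulum, and Tagln, transgelin of smooth muscle, both at 0.991, and Syn1 at 0.988. Creb3l1 stood at 4.69 ± 0.621 FPKM in control, 11.6 ± 1.52 in KPC and 14.4 ± 0.480 in Panc02. Actg2 lay closest to Usp28 at 0.993, and to Nars and Tars, aminoacyl-tRNA synthetases, at 0.991 and 0.990.

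The cytoplasmic actins had other neighbours, none of them an actin. Actb lay closest to Copz2 at 0.949, Smim26 at 0.942 and Fam83h at 0.941, and with number means subtracted to Cisd3 at 0.963, Smyd2 at 0.951 and Coa6 at 0.950. Actg1 lay closest to Wbp2 at 0.972, Usp30 at 0.961 and Entpd4 at 0.958, and with number means subtracted to Wbp2 at 0.982, Nrm at 0.975 and Sharpin at 0.962. Wbp2 had group means within 1 FPKM of each other, at 19.2 ± 2.76, 19.6 ± 5.29 and 19.7 ± 2.31 FPKM.

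The genes that act on actin were grouped in 7 lists. Among MRTF and SRF factors, 9 of 12 genes were tested, and none passed without the block in either comparison with control. Their median log2 difference was 0.02 for KPC and 0.20 for Panc02, where the medians of all tested genes were -0.01 and 0.00. Without KPC replicate 1 the KPC median was 0.20. With the block 1 gene of the list was called, in a fit that called 0.588% of all genes higher for KPC and 1.85% for Panc02. It was Csrp2, a LIM protein of smooth muscle, higher for both sources. It stood at 15.4 ± 2.16, 26.6 ± 8.65 and 36.8 ± 9.45 FPKM in control, KPC and Panc02, with log2 differences of 0.70 (adjusted p = 0.662, with the block 0.0322) and 1.18 (adjusted p = 0.122, with the block 0.00240). Fits with the block and each of the 9 libraries left out in turn were added after seeing the data. The KPC call of Csrp2 was kept in 2 of the 9, with adjusted p-values up to 0.174, and the Panc02 call in all 9. Csrp1, its relative, differed by 0.42 with Panc02 (adjusted p = 0.292, with the block 0.0556). Srf itself was at 10.2 ± 0.687, 11.6 ± 2.88 and 13.4 ± 2.23 FPKM and did not pass, at 0.15 for KPC and 0.36 for Panc02 (adjusted p = 1.00 and 0.677).

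Of 16 smooth muscle contractile genes 14 were tested, with median log2 differences of 0.10 for KPC and 0.21 for Panc02. None passed without the block. Tagln, an actin-binding protein and early smooth muscle marker, was at 42.7 ± 7.00 FPKM in control, 87.4 ± 33.8 in KPC and 104 ± 33.2 in Panc02. Its log2 differences were 0.94 (adjusted p = 0.590, with the block 0.0328) and 1.22 (adjusted p = 0.209, with the block 0.00695). With the block, the KPC call of Tagln was kept in 2 of the 9 fits with a library left out, with adjusted p-values up to 0.153. The Panc02 call was kept in 8, at 0.0533 without Panc02 replicate 3. Myh9, the heavy chain of non-muscle myosin IIA, was the other gene of the list called with the block, for Panc02, at 0.48 (adjusted p = 0.149, with the block 0.0296). That call was kept in 3 of the 9 fits, with adjusted p-values up to 0.178. The blocked fit of all libraries called 0.588% of all genes higher for KPC and 1.85% for Panc02. Cald1, caldesmon, was at 46.8 ± 7.36, 69.4 ± 14.2 and 67.3 ± 17.8 FPKM and did not pass with or without the block. Mylk, the myosin light chain kinase, was lower in mean, at 1.14 ± 0.108, 0.894 ± 0.0698 and 0.758 ± 0.213 FPKM, and did not pass (adjusted p = 1.00 and 0.384).

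Among actin cross-linkers and anchors 22 of 26 genes were tested, with medians of 0.04 for KPC and 0.20 for Panc02. The KPC median was 0.21 without KPC replicate 1, and the Panc02 median 0.089 without control replicate 1 and 0.10 without Panc02 replicate 2. Msn, moesin, which ties filaments to the cell membrane, rose with Panc02 exosomes and was the 1 gene of the 7 lists to pass without the block. That is 0.877% of the 114 genes tested in these lists, beside 0.434% of all tested genes called higher, and nothing is read from it. It was at 66.4 ± 3.49 FPKM in control, 96.6 ± 5.61 in KPC and 111 ± 4.85 in Panc02, a log2 difference of 0.73 for Panc02 (adjusted p = 0.00906, with the block 0.00230). For KPC its difference was 0.53 (adjusted p = 0.0736, with the block 0.0147). The Panc02 call of Msn without the block was lost when control replicate 2, control replicate 3 or Panc02 replicate 2 was left out, at up to 0.0839. With the block its KPC call was kept in 5 of the 9 fits with a library left out, with adjusted p-values up to 0.102, and its Panc02 call in all 9. With the block Actn1 at 0.39, Pdlim7 at 0.67 and Pdlim1 at 0.41 also passed for Panc02 (adjusted p = 0.0383, 0.0443 and 0.0481; without the block 0.461, 0.549 and 0.263). These calls were kept in 3, 2 and 1 of the 9 fits with a library left out, with adjusted p-values up to 0.206, 0.218 and 0.178. In the blocked fit of all libraries 1.85% of all genes were called higher for Panc02. Actn1 encodes alpha actinin, and Pdlim1 and Pdlim7 encode PDZ and LIM domain proteins of stress fibres. Palld, palladin, which bundles filaments, was at 13.8 ± 0.726, 15.7 ± 2.78 and 18.4 ± 1.82 FPKM and did not pass (Panc02 adjusted p = 0.352).

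The machinery that turns filaments over, starts them or folds actin held no called gene in either comparison, with or without the block. In monomer binding and filament turnover, 22 of 23 genes were tested, with medians of 0.05 and 0.03. The KPC median was -0.067 without control replicate 1 or KPC replicate 2 and -0.046 without KPC replicate 3, and the Panc02 median -0.059 without control replicate 1. Its lowest p-value for KPC and for Panc02 belonged to Svil, supervillin, at 9.38 ± 0.341, 7.61 ± 0.276 and 7.45 ± 0.503 FPKM (log2 differences -0.27 and -0.30, adjusted p = 0.446 and 0.219). In the nucleation list, of Arp2/3 subunits and formins, 24 of 29 were tested, with medians of 0.01 and 0.06 and all differences between -0.22 and 0.20. Among folding and modification genes, such as the CCT chaperonin, 17 of 20 were tested, with medians of 0.00 and 0.00. Among actin-related proteins 7 of 18 were tested, with medians of 0.05 and 0.04, and 0.20 for KPC without KPC replicate 1. No list had a gene called lower, where 0.203% of all genes were called lower for KPC and 0.579% for Panc02, and 1.09% and 2.39% with the block. Cfl2, the muscle cofilin of the turnover list, was called lower for Panc02 with the replicate 1 libraries left out, at a log2 difference of -0.34 (adjusted p = 0.0436), against -0.31 with all libraries (adjusted p = 0.750, with the block 0.0767). For Panc02 against KPC no gene of the 7 lists passed.

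**Figure D5:**
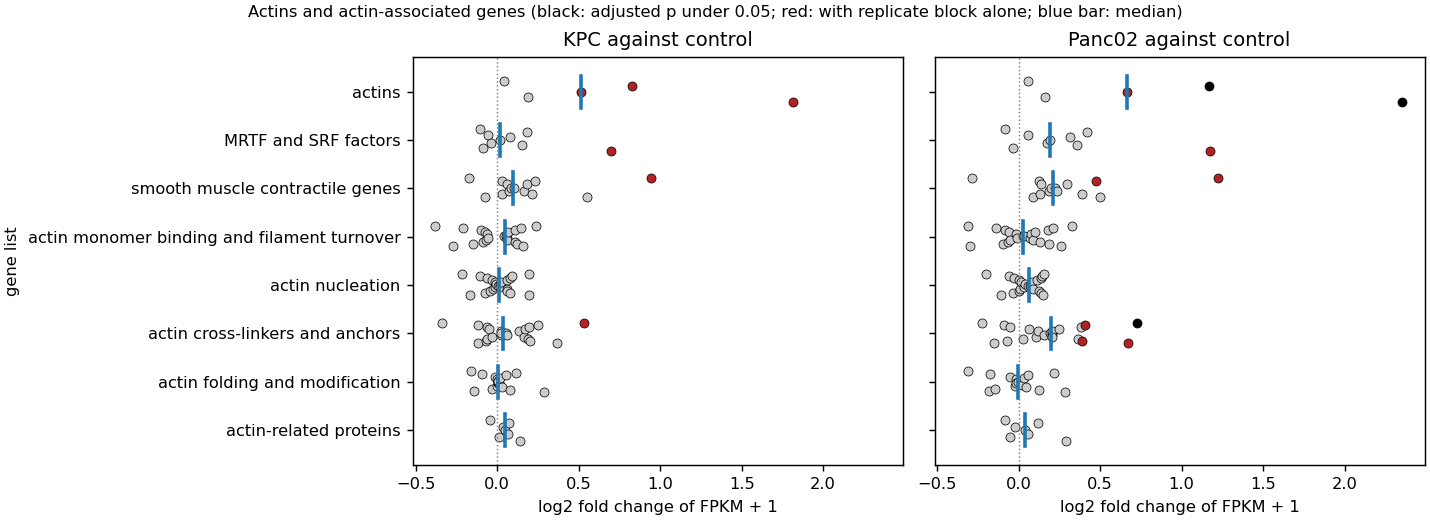
Log2 fold change of FPKM + 1 (x axis) for the actins and the 7 lists (y axis) in KPC and Panc02 against control; each point is a gene, a blue bar the median, black a gene with adjusted p under 0.05 and red one that passed with the replicate block alone. The muscle actins, Csrp2, Tagln and Msn lie toward the right, as do Cald1 for KPC and Pdlim7 for Panc02. The lists for turnover, nucleation, folding and related proteins hold grey points alone.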

How the data were processed

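RNA of 9 mouse hepatic stellate cell libraries, 3 per exosome source, was extracted with Trizol and prepared with a TruSeq kit, per the labels. The submitters' processing notes name cutadapt, HISAT2 2.0.4, StringTie 1.2.3 and GRCm38. Strand setting, annotation and handling of multiply mapped reads are unstated (not given in the sources used here). FPKM is what the authors deposited, and for 4 of the 5 actins, Acta2 not among them, the values fit a division by the annotated length of all exons (FPKM times that length was a whole number of millionths, within 0.01). Whole reads could not be recovered, so depth is unknown.

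A gene was tested where 3 or more libraries had 1 FPKM or more (10368 of 11051). Limma 3.58.1 in R 4.3.3 was fitted to log2(FPKM + 1) of the 9 libraries, with a mean per group and a prior variance that follows the level (6 residual and 2.38 prior degrees of freedom). Tests were two-sided and adjusted by Benjamini-Hochberg over all tested genes, with a threshold of 0.05.

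The labels do not explain the replicate numbers. Deviations from group means correlated wherever 2 groups' libraries had the same number, by 0.639 to 0.810 (number 1) and 0.243 to 0.511 (numbers 2 and 3), while number 2 correlated with number 3 of another group by 0.299 to 0.613. All same-number correlations being over 0.1, the numbers were taken as pairs, and a fit with the number as a block stands beside each result it changes. The crossed correlations of numbers 2 and 3 were over 0.1 too, so the data set only number 1 apart. Every blocked call rests on this choice, which was made from these same data.

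The actins were named whatever their values, as were the 3 genes most correlated with each, before and after subtracting number means. From each list the 3 genes of lowest p per comparison could be named. Other genes, among them Actn1, Pdlim7, Col1a1 and Tnnt2, were chosen after their values were seen. Members and lists were chosen with earlier results of these data known. Other scalings, pseudocounts, filters and left-out libraries were tried, and the steps were tested on simulated data. Sequences came from GENCODE M21 and RefSeq, read with Python 3.11.15, numpy 2.4.6, pandas 2.3.3 and Biopython 1.88. Plots used matplotlib 3.10.9. One shared sequence is not reported here.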

Additional observations from a re-analysis of the deposited data

How the results depend on the processing

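Acta1, Acta2 and Actg2 kept a mean above control, and none of the 5 actins was called lower, under every alternative run. Over all tested genes 34 were called for KPC, against 6 with equal FPKM totals, 0 with the 2 groups fitted alone, 174 with the replicate block, 178 without the replicate 1 libraries and 0 to 34 with 1 library left out, 0 when it was a control library. For Panc02 105 were called, against 46 with equal totals, 440 with the replicate block, 477 without the replicate 1 libraries and 23 to 126 with 1 library left out. For Panc02 against KPC 0 were called, against 8 without the replicate 1 libraries and 0 to 1 with 1 library left out. The Panc02 calls of Acta1 and Actg2 were lost with equal totals (adjusted p = 0.106 and 0.148), and that of Actg2 with the 2 groups alone (0.0644). Acta2 passed for Panc02 with totals equal without mitochondrially encoded genes (0.0293) and with upper quartile scaling (0.0364). Cfl2 was called lower for Panc02 without the replicate 1 libraries. Under the alternatives 24 list medians moved by more than the spread between replicates, and the cause was not tested. Another 354 did not, but many of these could not move. The replicate block, another variance prior, no filter and fitting the 2 groups alone leave the log2 differences as they are. So does leaving out a library of the group that is not compared. The 354 is therefore no measure of stability. Fewer samples or genes enter some of these fits, and the unknown read depth limits what can be said of Acta1 in control.

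Signs turned for Actb and Actg1 alone, neither of them ever called. Actg1 against control, with 1 library left out, differed by -0.16 to 0.31 for KPC and -0.055 to 0.17 for Panc02, and by -0.021 for Panc02 without the replicate 1 libraries. With the replicate block it was -0.050 and -0.17 for KPC without control replicate 2 or KPC replicate 2, and -0.034 and -0.10 for Panc02 without control replicate 2 or Panc02 replicate 1. For Panc02 against KPC, leaving out 1 library gave -0.18 to 0.056 for Actb and -0.26 to 0.21 for Actg1. Equal totals gave 0.00113 for Actb, upper quartile scaling -0.000479 for Actg1, and leaving out the replicate 1 libraries -0.22 for Actg1. With the replicate block and 1 library left out, Actb reached 0.052, 0.017 and 0.055 (without KPC replicate 2, KPC replicate 3 or Panc02 replicate 2) and Actg1 -0.19 and -0.14 (without KPC replicate 1 or Panc02 replicate 1).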
